A study of Arabidopsis thaliana with 15 samples.

Results

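Arabidopsis plants of the first generation of an msh1 memory lineage were compared with wild-type plants of the same generation, gene by gene, over 6 of the 15 plants sequenced. MSH1 is a nuclear gene whose product is sent to plastids and mitochondria. Its suppression alters growth, and some progeny keep an altered growth state after the suppressing transgene is gone. The members were chosen by the sample labels alone: the 3 plants labelled Generation 1 memory (Gen1 memory) and the 3 labelled Generation 1 wild type (Gen1 WT).

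All plants were Col-0. The Gen1 memory plants had lost the transgene: they came by segregation from an MSH1-RNAi line and were picked by eye for the memory phenotype of slow growth, pale leaves and late flowering. All trace back to the progeny of a single transformed plant, so the group stands for 1 lineage. The Gen1 WT plants came from RNAi transformations that proved negative and were grown beside the memory plants, in 12-hour days at 22 °C. Both groups were frozen at early bolting, as whole plants by the methods and as whole rosettes by the labels. They were thus matched by stage, and the methods give no age in days at harvest. Because memory plants flower late, the groups may differ in age and day of harvest. Such differences cannot be told apart from memory here. The time of day of harvest is not given in the sources used here. Beside the main groups, 3 plants of each of 2 other controls are given as a description: Gen1 nonmemory plants, siblings that lost the same transgene and looked normal, and WT plants of Generation 5 (Gen5 WT). Each sample was a separate plant, and a shared replicate number is not described as a shared tray or preparation.

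Counts on nuclear genes totalled 77165445 to 78271395 in the WT plants and 78056362 to 78913055 in the memory plants, so depth was nearly equal. The 100 most abundant genes took 28.2% to 29.4% of the counts in memory plants and 21.2% to 21.7% in WT plants. Values below are normalized counts, that is counts scaled by TMM (edgeR's trimmed-mean scaling) to the mean library of the 15 plants, in the order of plants 1, 2 and 3. Fold changes are log2 of memory over WT with their standard error (SE) from edgeR's quasi-likelihood test, and p-values are Benjamini-Hochberg adjusted over all genes tested. A gene was called when the adjusted p was under 0.05 and the absolute log2 fold change over 0.5. MSH1 itself (AT3G24320), the target of the lost transgene, had 887, 863 and 878 normalized counts in memory and 788, 777 and 812 in WT, and was not called (log2 fold change 0.16 ± 0.07, adjusted p = 0.14).

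Memory plants differed from WT plants in 3968 of the 19837 genes tested (20.0%). Of these 1888 were higher in memory (9.52% of the genes tested) and 2080 were lower (10.5%), and 710 and 947 of them changed more than 2-fold. Most tested genes of the light-harvesting apparatus, chlorophyll synthesis and the cold response were called higher, as were 16 of 32 clock genes. Most touch-induced wall genes and rapidly induced stress regulators were called lower, as were 8 of 16 flavonoid genes. The lists were chosen with earlier results of these data known, so the shares called in them are a description. The median log2 fold change over all genes tested was -0.01, the value against which the medians of the lists below are read. Scaled by library totals alone, the median of all genes moved to -0.19, and the calls became 1168 higher and 3625 lower, so directions are given relative to the TMM scaling. In 3075 of the 3968 called genes (77.5%) the 3 memory plants lay beyond all 9 WT and nonmemory plants, against 33.2% of all genes tested. In the other 893 called genes the memory plants were neither all above nor all below those 9. Among the called genes named below these are AT1G71000, DREB1C, COR15A, RBCS2B, CML37, ERF4, NCED3, GASA6, ARR6, VSP2, CO, LSF1, SPX1 and GDPD1. The iron, antioxidant and other genes among them are NEET, FER1, FER4, NAS4, PYE, BTS, FSD1, SAPX, OM66 and GSTU20. Among the genes named below, BR6OX2, DML3, ERF4, GUN1, NCED3, PORC and RS40 missed a threshold when library totals alone were used. In RNA from whole plants or rosettes, fewer cells of a type and less RNA per cell cannot be told apart.

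**Figure D1:**
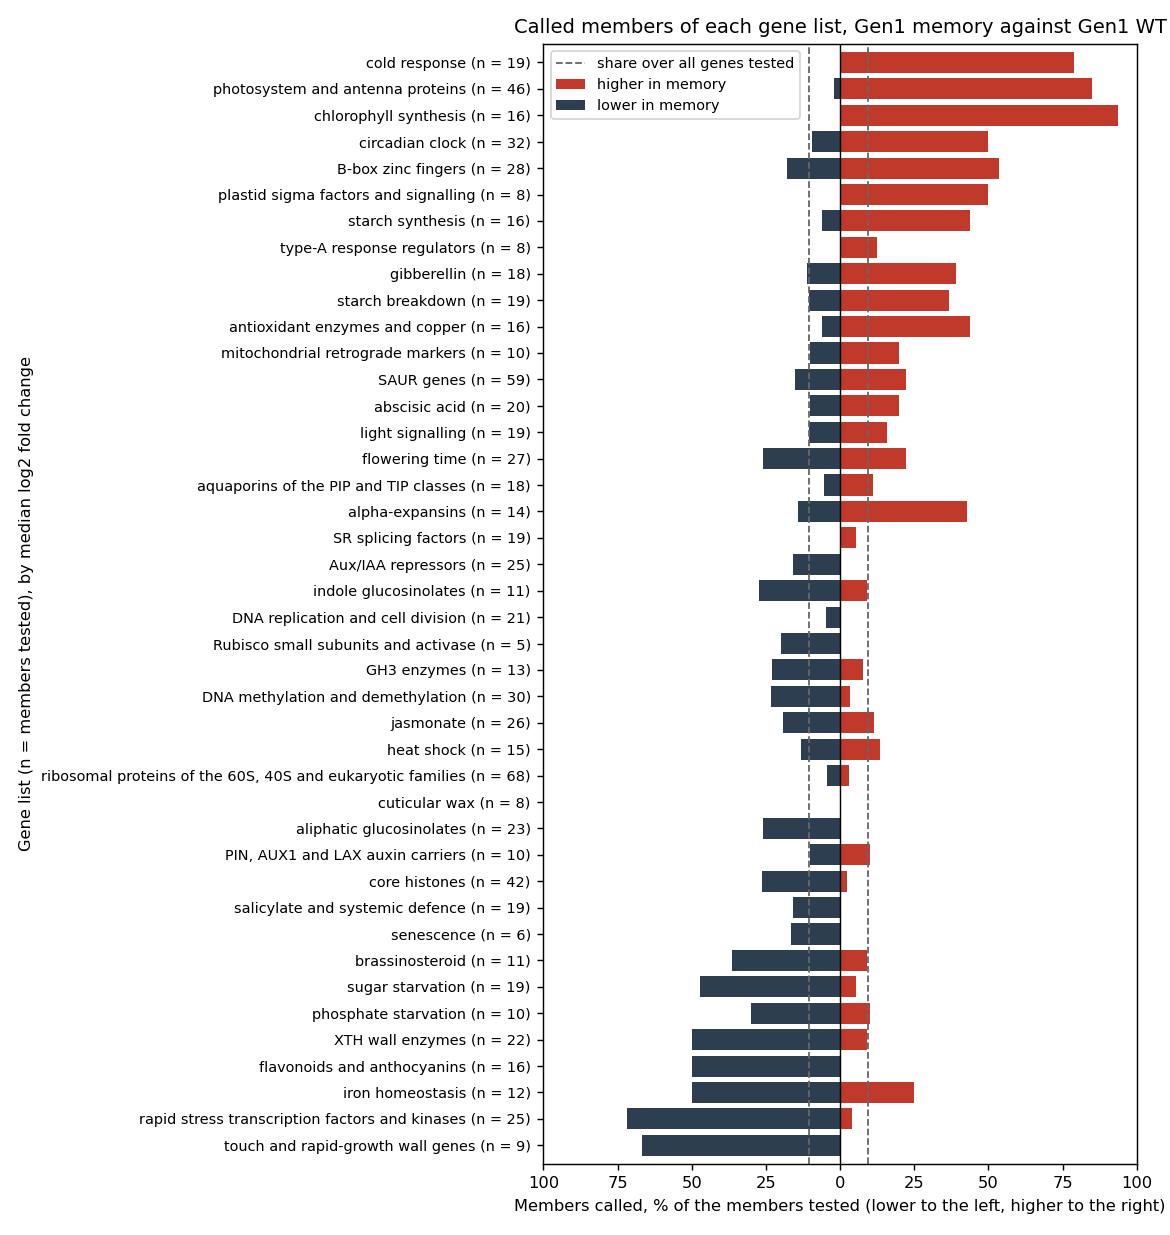
Bars give the share of tested members called higher (right, red) and lower (left, dark blue) in Gen1 memory against Gen1 WT for 42 gene lists, ordered by median log2 fold change; dashed lines mark the shares over all genes tested, 9.52% and 10.5%. Cold response, photosystem and chlorophyll lists reach furthest to the right, and touch and rapid stress lists furthest to the left.

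The largest rises named by the rule on abundance and separation came from several pathways. GolS3 (AT1G09350), a galactinol synthase of the cold response, had 2056, 2100 and 2587 normalized counts in memory and 22.6, 15.3 and 31.9 in WT (96.7-fold, log2 fold change 6.60 ± 0.23, adjusted p = 1.9e-05). CIPK20 (AT5G45820), a kinase that works with calcium sensors of the CBL family, had 4881, 3842 and 3441 against 46.1, 68 and 30 (log2 fold change 6.41 ± 0.28, adjusted p = 2.9e-05). TPS03 (AT4G16740), a terpene synthase, had 1177, 1612 and 3452 against 28.2, 27.8 and 38.5 (log2 fold change 6.05 ± 0.48, adjusted p = 0.0002). In these and the next 3 genes the memory plants lay above all 9 other plants. The next genes are known by a protein domain or by identifier alone. AT1G70640, with a PB1 domain, had 1347, 1795 and 3174 against 53.7, 57.5 and 110 (log2 fold change 4.84 ± 0.42, adjusted p = 0.00026), and AT1G66060, with a DUF577 domain, had 504, 454 and 457 against 25.4, 22 and 12.2 (log2 fold change 4.57 ± 0.25, adjusted p = 5.7e-05). AT4G33467, of unknown function, had 301, 258 and 426 against 7.53, 13.4 and 22.5 (log2 fold change 4.50 ± 0.38, adjusted p = 0.00025). In GolS3, CIPK20, TPS03 and AT1G66060 every Gen1 WT plant lay below all plants of both other controls. Set against Gen1 nonmemory, the log2 differences of the memory mean were 4.33, 5.18, 4.13 and 1.48 in that order. Set against Gen5 WT they were 4.56, 4.49, 3.76 and 1.26, and neither was tested. AT1G71000, a DnaJ-type chaperone, rose from 32, 12.5 and 25.3 to 418, 474 and 789 (log2 fold change 4.59 ± 0.38, adjusted p = 0.00023), but Gen1 nonmemory plants had 348, 487 and 175, which overlaps the memory plants.

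The circadian clock is a loop of transcription factors that follow each other through the day: CCA1 and LHY peak near dawn, the repressors PRR9, PRR7 and PRR5 follow in turn, and TOC1 and GI peak later. Of 32 clock genes tested, 16 were called higher and 3 lower, with a median log2 fold change of 0.77. PRR9 (AT2G46790) had 1777, 1206 and 780 normalized counts in memory and 32.9, 33.5 and 19.7 in WT, a 43.9-fold difference (log2 fold change 5.46 ± 0.38, adjusted p = 0.00011). PRR5 (AT5G24470) had 8497, 8514 and 12220 against 1380, 1306 and 1006 (log2 fold change 3.00 ± 0.19, adjusted p = 7.9e-05), and PRR7 (AT5G02810) had 16828, 15992 and 15233 against 5183, 5357 and 4310 (log2 fold change 1.71 ± 0.10, adjusted p = 7.1e-05). GI (AT1G22770), which links the clock to flowering, had 17991, 21200 and 22390 against 7694, 7515 and 6558 (log2 fold change 1.51 ± 0.11, adjusted p = 0.00013). The daytime PRR genes and GI thus stood above WT in every memory plant, by 1.51 to 5.46 on the log2 scale.

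The dawn genes differed from each other. CCA1 (AT2G46830) had 3428, 1448 and 1295 normalized counts in memory and 192, 264 and 241 in WT (log2 fold change 3.16 ± 0.40, adjusted p = 0.0013), while its partner LHY (AT1G01060) had 608, 253 and 338 and 193, 294 and 252, with overlapping plants and no call (log2 fold change 0.71 ± 0.33, adjusted p = 0.14). TOC1 (AT5G61380) overlapped as well, with 12770, 15739 and 18690 against 15988, 16902 and 16369 (log2 fold change -0.05 ± 0.13, adjusted p = 0.8). Relatives of CCA1 in the RVE family went both ways. RVE2 (AT5G37260) had 1085, 1657 and 2457 against 8470, 7143 and 7122 (log2 fold change -2.12 ± 0.27, adjusted p = 0.0013), and RVE1 (AT5G17300) had 231, 172 and 68.2 against 452, 550 and 454 (log2 fold change -1.61 ± 0.38, adjusted p = 0.016). The RVE1 call was lost without Gen1 WT 2 (log2 fold change -1.51, adjusted p = 0.059). RVE7, named here after its values were seen, was higher (log2 fold change 2.38, adjusted p = 1.9e-05), and RVE8, RVE6 and RVE4 had log2 fold changes of 1.05, 0.48 and 0.27 and were not called. For CCA1, PRR9, PRR7, PRR5, GI, RVE1 and RVE2 the memory plants lay outside the range of all 9 other plants. A single harvest cannot tell a change in level from a shift in time of day, and the hour of harvest of each plant was not tested.

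**Figure D2:**
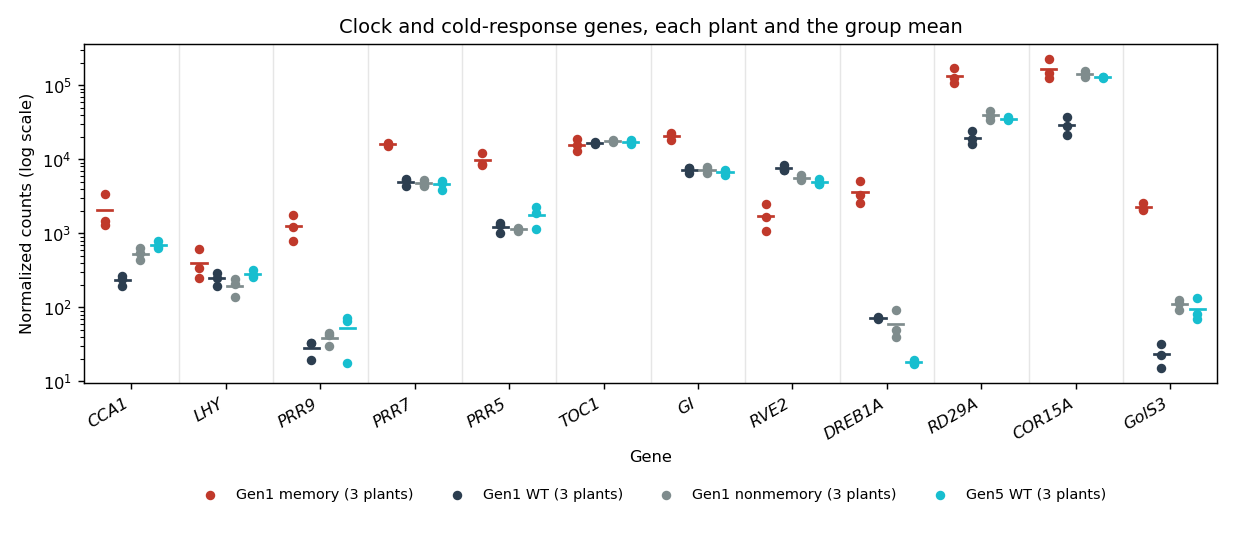
Normalized counts (log scale) of 8 clock and 4 cold-response genes in each of 12 plants, with short lines at the group means; red is Gen1 memory, dark blue Gen1 WT, grey Gen1 nonmemory and cyan Gen5 WT. PRR9, PRR7, PRR5, GI, DREB1A and GolS3 stand above all other plants in memory, TOC1 does not differ visibly, and COR15A is low in Gen1 WT only.

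The upstream bases of 4 clock genes are shown because they carry the short elements through which clock proteins are known to act on each other's promoters. Each is the 250 bases before the annotated gene start in TAIR10.1 (RefSeq annotation), 5′ to 3′ on the gene's strand, with the evening element (AAAATATCT), the G-box (CACGTG) and the CRT/DRE core (CCGAC) in capitals, each searched on both strands. PRR5 (chr5:8358547-8358796) and TOC1 (chr5:24674713-24674962) hold an evening element read on the opposite strand as AGATATTTT, and PRR5 also holds the CRT/DRE core as GTCGG. CCA1 (chr2:19245341-19245590) holds 1 G-box and PRR9 (chr2:19232357-19232606) holds 2.
PRR5: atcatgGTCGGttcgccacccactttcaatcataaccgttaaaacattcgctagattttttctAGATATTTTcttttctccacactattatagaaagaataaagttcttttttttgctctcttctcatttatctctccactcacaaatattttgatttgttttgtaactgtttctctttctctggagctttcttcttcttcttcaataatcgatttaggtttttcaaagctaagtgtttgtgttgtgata
TOC1: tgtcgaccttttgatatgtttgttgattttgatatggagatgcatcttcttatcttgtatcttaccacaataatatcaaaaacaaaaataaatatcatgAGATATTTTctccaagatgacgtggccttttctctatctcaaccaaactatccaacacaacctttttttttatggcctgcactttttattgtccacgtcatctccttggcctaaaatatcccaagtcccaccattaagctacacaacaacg
CCA1: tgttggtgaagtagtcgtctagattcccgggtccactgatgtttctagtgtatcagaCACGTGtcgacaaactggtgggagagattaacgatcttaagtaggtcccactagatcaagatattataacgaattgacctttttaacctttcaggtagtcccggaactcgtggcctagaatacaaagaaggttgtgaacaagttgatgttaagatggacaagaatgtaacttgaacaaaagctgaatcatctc
PRR9: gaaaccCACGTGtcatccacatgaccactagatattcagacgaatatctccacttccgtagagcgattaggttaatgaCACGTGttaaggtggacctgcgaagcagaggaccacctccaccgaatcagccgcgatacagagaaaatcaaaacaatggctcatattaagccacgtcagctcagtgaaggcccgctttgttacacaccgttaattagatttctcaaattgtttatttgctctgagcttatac

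Over the 19836 tested genes whose window could be read, 2.55% held an evening element, against 6.78% of the genes called higher, 2.02% of those called lower and 28.1% of the 32 clock genes (9 of 32). A G-box was in 7.30% of all windows, 10.6% of those of genes called higher, 8.27% of those called lower and 34.4% of the clock genes. These are counts of letters in the windows. PRR5 was called higher and TOC1 was not, although both hold the evening element.

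The cold response runs from the DREB1 (CBF) transcription factors, which appear within hours of cold and bind the CRT/DRE core, to the protective proteins and sugars they switch on. All plants here were grown at 22 °C. Of 19 cold-response genes, 15 were called higher and none lower, with a median log2 fold change of 1.54. Among the regulators, DREB1A (AT4G25480) had 3255, 2588 and 5092 normalized counts in memory and 74.4, 72.8 and 70.4 in WT, a 50.5-fold difference (log2 fold change 5.66 ± 0.28, adjusted p = 4.1e-05). DREB1B had 136, 133 and 886 against 36.7, 32.6 and 107 (log2 fold change 2.72 ± 0.87, adjusted p = 0.048), and DREB1C had 717, 272 and 1126 against 48.9, 95.8 and 226 (log2 fold change 2.52 ± 0.65, adjusted p = 0.023). Both had their highest value in memory plant 3. The DREB1B call was lost without Gen1 memory 3 (log2 fold change 1.21, adjusted p = 0.11), Gen1 WT 1 (log2 fold change 2.47, adjusted p = 0.14), Gen1 WT 2 (log2 fold change 2.43, adjusted p = 0.15) or Gen1 WT 3 (log2 fold change 3.47, adjusted p = 0.052). The DREB1C call was lost without Gen1 memory 3 (log2 fold change 2.02, adjusted p = 0.052), Gen1 WT 1 (log2 fold change 2.14, adjusted p = 0.061) or Gen1 WT 2 (log2 fold change 2.37, adjusted p = 0.084).

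Among the targets, RD29A (AT5G52310), a dehydration and cold-induced protein, had 106271, 125826 and 169531 normalized counts in memory, 16048, 18794 and 23823 in WT (log2 fold change 2.79 ± 0.22, adjusted p = 0.00017), 38203, 45027 and 34198 in Gen1 nonmemory and 34652, 36938 and 33996 in Gen5 WT. It was highest in the memory plants and lowest in Gen1 WT. COR15A (AT2G42540), which protects chloroplast membranes, had 123551, 148305 and 223373 in memory against 21075, 28283 and 36751 in Gen1 WT (log2 fold change 2.53 ± 0.28, adjusted p = 0.00069). The other controls had 140070, 154068 and 130575 (Gen1 nonmemory) and 130020, 128384 and 124485 (Gen5 WT), so for COR15A the Gen1 WT plants were the low group and only memory plant 3 lay above all plants of the other controls. The medians of the list were 0.97 and 1.10 on the log2 scale when the memory mean was set against Gen1 nonmemory and Gen5 WT, values which share the memory plants with the main comparison and were not tested.

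The upstream bases of 3 of these targets are shown for their copies of the CRT/DRE core (CCGAC, or GTCGG on the opposite strand, in capitals as before, with any G-box CACGTG). RD29A (chr5:21240467-21240716) holds 3 cores, whose first bases lie 140, 90 and 33 bases before the gene start. COR15A (chr2:17712331-17712580) holds 2 cores and a G-box, and GolS3 (chr1:3019389-3019638) holds 2 cores and a G-box.
RD29A: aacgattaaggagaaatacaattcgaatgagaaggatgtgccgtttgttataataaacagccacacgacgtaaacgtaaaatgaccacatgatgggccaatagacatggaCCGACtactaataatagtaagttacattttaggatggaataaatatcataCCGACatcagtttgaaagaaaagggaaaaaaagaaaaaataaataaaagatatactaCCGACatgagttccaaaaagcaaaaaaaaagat
COR15A: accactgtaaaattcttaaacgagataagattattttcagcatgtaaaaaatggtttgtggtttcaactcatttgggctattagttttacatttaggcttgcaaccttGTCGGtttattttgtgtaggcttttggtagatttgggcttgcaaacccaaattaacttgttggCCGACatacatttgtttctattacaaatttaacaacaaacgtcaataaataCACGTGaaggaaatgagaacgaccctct
GolS3: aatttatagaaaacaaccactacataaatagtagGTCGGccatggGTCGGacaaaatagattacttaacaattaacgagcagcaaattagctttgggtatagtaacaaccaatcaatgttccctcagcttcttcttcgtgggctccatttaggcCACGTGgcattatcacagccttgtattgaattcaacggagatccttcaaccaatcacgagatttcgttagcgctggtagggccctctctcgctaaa

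The core was in 6 of the 19 cold-response windows (31.6%), against 13.1% of all windows, 13.7% of those of genes called higher and 11.2% of those called lower.

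Most light-harvesting genes were higher in memory. The antenna proteins bind most leaf chlorophyll and pass light energy to the photosystems, whose nuclear-encoded subunits are counted with them here. Of 46 such genes tested, 39 were called higher and 1 lower, with a median log2 fold change of 1.00. Together they took 15.4%, 15.8% and 15.2% of all nuclear gene counts in memory plants and 6.67%, 6.81% and 7.57% in WT plants, with 8.20% to 8.27% in Gen1 nonmemory and 7.50% to 8.25% in Gen5 WT. LHCB2.1 (AT2G05100), of the main antenna of photosystem II, had 225304, 179909 and 159137 normalized counts in memory and 8927, 9009 and 10617 in WT (19.9-fold, log2 fold change 4.32 ± 0.17, adjusted p = 2.6e-05). CAB2 (AT1G29920), another gene of that antenna, had 298695, 204632 and 235898 against 11949, 15582 and 14530 (log2 fold change 4.15 ± 0.19, adjusted p = 2.9e-05). In LHCB2.1 and CAB2 every Gen1 WT plant lay below all plants of both other controls. The log2 differences of the memory mean were 3.14 and 2.37 from Gen1 nonmemory, and 3.13 and 2.34 from Gen5 WT, without a test. These genes have near-identical copies, and since reads that mapped to several places were dropped, the split between copies is uncertain. LHCB4.3 (AT2G40100), a minor antenna gene, was the exception and fell, with 2908, 2640 and 3934 against 12850, 15882 and 11999 (log2 fold change -2.09 ± 0.17, adjusted p = 0.00023). At a threshold of 1 on the log2 scale 24 of the 46 were called instead of 40.

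**Figure D3:**
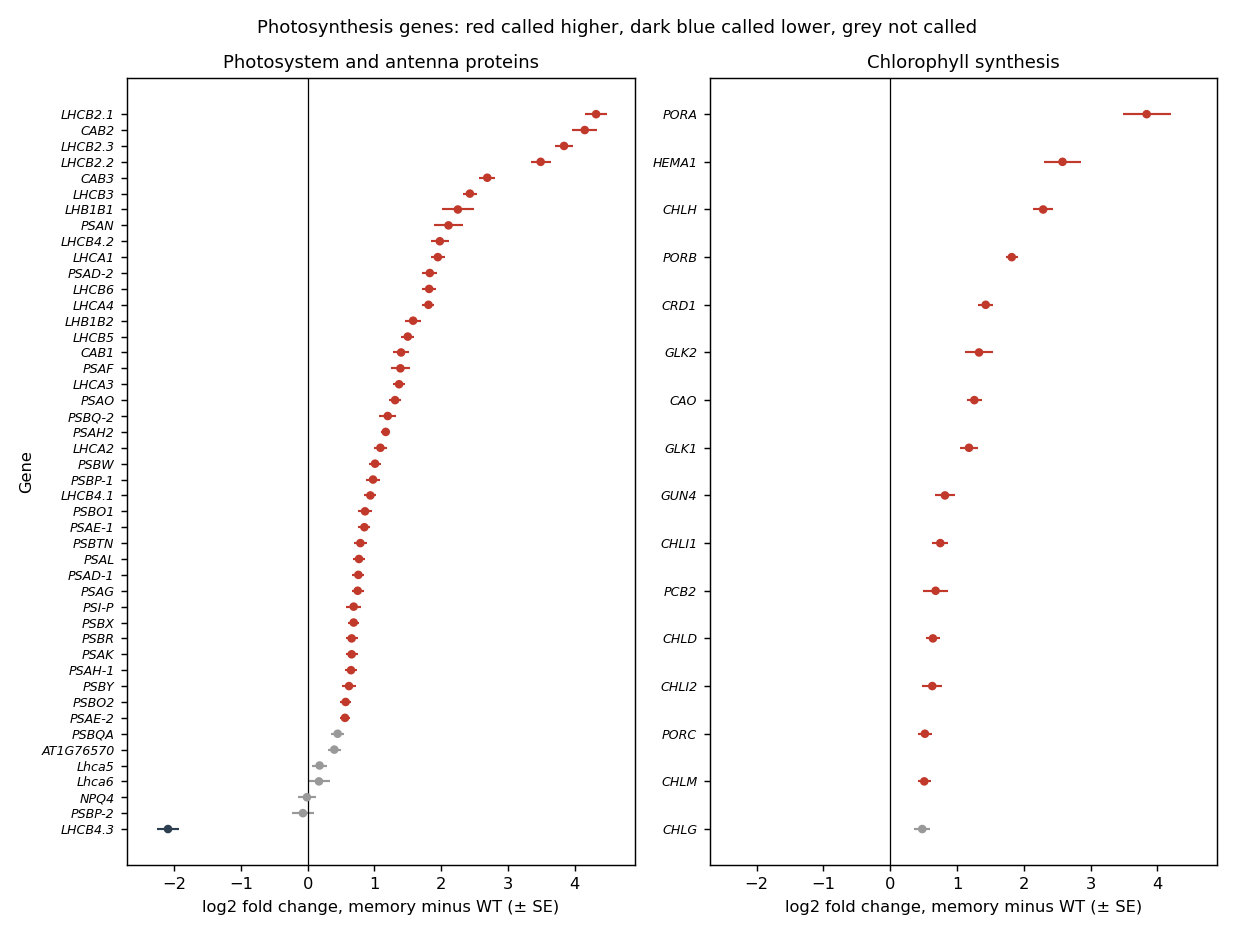
Log2 fold changes of memory over WT with their SE for 46 photosystem and antenna genes (left) and 16 chlorophyll synthesis genes (right); red is called higher, dark blue called lower and grey not called. Most genes lie to the right of 0, LHCB2.1 furthest among the antenna genes at 4.32, and LHCB4.3 alone is called lower, at -2.09.

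The 250 bases before LHCB2.1 (chr2:1824481-1824730), shown because this gene rose most of the group, hold none of the 3 elements. A G-box was in 23.9% of the 46 windows of photosystem and antenna genes.
LHCB2.1: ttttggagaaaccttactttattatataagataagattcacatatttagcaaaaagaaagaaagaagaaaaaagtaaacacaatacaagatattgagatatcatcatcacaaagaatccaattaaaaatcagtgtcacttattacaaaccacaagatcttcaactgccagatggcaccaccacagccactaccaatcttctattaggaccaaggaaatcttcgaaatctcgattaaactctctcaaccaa

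Chlorophyll synthesis rose with the antenna. The pathway starts from glutamate, and its last light-driven step reduces protochlorophyllide. Of 16 genes, the regulators GLK1 and GLK2 included, 15 were called higher and none lower, with a median log2 fold change of 1.00, and in all 16 the memory plants did not overlap the WT plants (49.8% of all genes tested). HEMA1 (AT1G58290), the glutamyl-tRNA reductase at the start of the pathway, had 8204, 12654 and 16126 normalized counts in memory and 1917, 1619 and 2711 in WT (log2 fold change 2.58 ± 0.28, adjusted p = 0.00069). The 3 protochlorophyllide oxidoreductases rose by different amounts. PORA had 527, 318 and 357 against 31.1, 14.4 and 38.5 (log2 fold change 3.84 ± 0.36, adjusted p = 0.00038), and PORB had 126125, 122105 and 130964 against 34456, 35360 and 38458 (log2 fold change 1.82 ± 0.09, adjusted p = 3.3e-05). PORC had 25116, 26211 and 30547 against 18507, 20229 and 18767 (log2 fold change 0.52 ± 0.10, adjusted p = 0.006), a change close to the fold threshold that missed it without Gen1 memory 3 (log2 fold change 0.44, adjusted p = 0.0069) or Gen1 WT 1 (log2 fold change 0.49, adjusted p = 0.029). At a threshold of 1 on the log2 scale 8 of the 16 were called.

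The plastid machinery around these genes rose in part. Of 8 sigma factor and plastid signalling genes 4 were called higher. SIG1, which directs the plastid RNA polymerase, had 4586, 6750 and 6982 normalized counts against 1943, 2010 and 2465 (log2 fold change 1.52 ± 0.17, adjusted p = 0.00081), and SIG5, its light- and stress-responsive relative, had 3004, 1873 and 2071 against 795, 874 and 897 (log2 fold change 1.45 ± 0.18, adjusted p = 0.0011). STN7, the thylakoid kinase of state transitions, had 13661, 13313 and 13364 against 6198, 6636 and 6666 (log2 fold change 1.06 ± 0.07, adjusted p = 8.2e-05). GUN1, of plastid-to-nucleus signalling, had 27681, 23557 and 26774 against 17062, 19242 and 15112 (log2 fold change 0.61 ± 0.11, adjusted p = 0.0061), while SIG2, SIG3, SIG4 and SIG6 were not called. Rubisco did not follow the antenna: of its 4 small subunit genes and its activase, RBCS2B alone was called, lower, with 70919, 88505 and 88234 against 113990, 136274 and 126827 (log2 fold change -0.60 ± 0.12, adjusted p = 0.0089), and it missed the fold threshold without Gen1 memory 1 (log2 fold change -0.48, adjusted p = 0.017), while 2 of the 5 were called without Gen1 memory 3. The most abundant of them, RBCS1A, had 1103160, 1075936 and 1316192 against 1069176, 1144547 and 1079879 (log2 fold change 0.10 ± 0.11, adjusted p = 0.55). The small subunit genes are close copies, and their split is uncertain too. As a check on tissue, the summed level of 8 leaf mesophyll markers, which overlap these lists, was 2949301 to 3328450 in memory and 2287531 to 2417878 in WT. Its part in these results was not tested.

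Regulators of light responses also moved. B-box zinc fingers are transcription factors that act with the light and clock pathways. Of 28 tested, 15 were called higher and 5 lower. BBX29 had 701, 502 and 297 normalized counts in memory and 29.2, 18 and 29.1 in WT (log2 fold change 4.30 ± 0.38, adjusted p = 0.00027), and BBX28 had 2159, 1850 and 1237 against 152, 117 and 174 (log2 fold change 3.58 ± 0.25, adjusted p = 0.00011). In the other direction BZS1 had 35.4, 75 and 45.8 against 311, 424 and 543 (log2 fold change -3.02 ± 0.33, adjusted p = 0.00065) and BBX14 had 15920, 20940 and 17536 against 46334, 47276 and 48724 (log2 fold change -1.38 ± 0.11, adjusted p = 0.00022). All 4 lay outside the range of the 9 other plants. Of 19 light signalling genes, 3 were higher and 2 lower, close to the share over all genes. PIF4, a growth-promoting factor held in check by phytochrome, had 15996, 18642 and 14727 against 5673, 5830 and 7439 (log2 fold change 1.39 ± 0.14, adjusted p = 0.00044), and PIF7 had 2131, 1687 and 1646 against 1139, 1065 and 1035 (log2 fold change 0.77 ± 0.11, adjusted p = 0.0025). PIF3 was lower, with 1156, 1288 and 1160 against 1812, 2011 and 2193 (log2 fold change -0.73 ± 0.09, adjusted p = 0.0014), and HY5, a central factor of light-grown development, was not called (log2 fold change -0.27 ± 0.15, adjusted p = 0.21).

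The deepest falls were in genes that respond to touch and to rapid growth. Plants switch these genes on within minutes of handling, wind or hormone treatment, and many encode wall enzymes or calcium sensors. Of 9 tested, none was called higher and 6 were called lower, with a median log2 fold change of -2.34. PHI-1 (AT1G35140) and EXO (AT4G08950) belong to 1 family of extracellular proteins linked to growth. PHI-1 had 9.37, 13.7 and 16 normalized counts in memory and 4074, 9191 and 10517 in WT (log2 fold change -9.23 ± 0.51, adjusted p = 5.7e-05), and EXO had 265, 161 and 225 against 5237, 13089 and 12328 (log2 fold change -5.55 ± 0.41, adjusted p = 0.00015). TCH4 (AT5G57560), a xyloglucan endotransglucosylase that loosens walls, had 577, 251 and 830 against 14353, 26144 and 30637 (log2 fold change -5.41 ± 0.50, adjusted p = 0.00035). The calmodulin-like TCH3 had 16000, 9574 and 7852 against 41465, 42067 and 33774 (log2 fold change -1.80 ± 0.26, adjusted p = 0.0022), and TCH2 had 1004, 420 and 2982 against 6241, 7886 and 8577 (log2 fold change -2.36 ± 0.62, adjusted p = 0.024). The TCH2 call was lost without Gen1 memory 1 (log2 fold change -2.13, adjusted p = 0.064), Gen1 WT 2 (log2 fold change -2.32, adjusted p = 0.065) or Gen1 WT 3 (log2 fold change -2.26, adjusted p = 0.06). For these 5 genes every memory plant lay below all 9 other plants. The remaining gene called lower, CML37, had 357, 147 and 75.7 against 1368, 1224 and 381 (log2 fold change -2.34 ± 0.64, adjusted p = 0.028). Its memory plants overlapped Gen1 nonmemory (63, 269 and 473) and Gen5 WT (227, 220 and 149). The CML37 call was lost without Gen1 memory 2, Gen1 memory 3, Gen1 WT 1 or Gen1 WT 2 (adjusted p = 0.053 to 0.094).

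EXL2 and EXL4, relatives of EXO, overlapped between the groups and were not called. EXL2 had 2817, 3498 and 2050 against 2873, 4216 and 4069 (log2 fold change -0.40 ± 0.22, adjusted p = 0.19). EXL4 had 1249, 1164 and 882 against 998, 1148 and 1518 (log2 fold change -0.14 ± 0.19, adjusted p = 0.6). Among 22 wall enzymes of the XTH family, to which TCH4 belongs, 11 were lower and 2 higher, with a median log2 fold change of -0.81. XTR6 had 47.9, 25.3 and 26.6 against 273, 683 and 593 (log2 fold change -3.94 ± 0.42, adjusted p = 0.00065), and XTH31 rose, with 1757, 1364 and 2385 against 503, 528 and 538 (log2 fold change 1.82 ± 0.19, adjusted p = 0.00057). Expansins, which loosen walls without cutting them, were mixed: of 14 tested 6 were higher and 2 lower. EXPA1 had 10786, 12833 and 11191 against 2570, 3315 and 2649 (log2 fold change 2.04 ± 0.13, adjusted p = 7.3e-05), EXPA8 had 7398, 8107 and 5786 against 1802, 1690 and 2245 (log2 fold change 1.90 ± 0.16, adjusted p = 0.00022), and EXPA16 had 631, 386 and 582 against 1255, 1510 and 2425 (log2 fold change -1.69 ± 0.28, adjusted p = 0.0038).

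**Figure D4:**
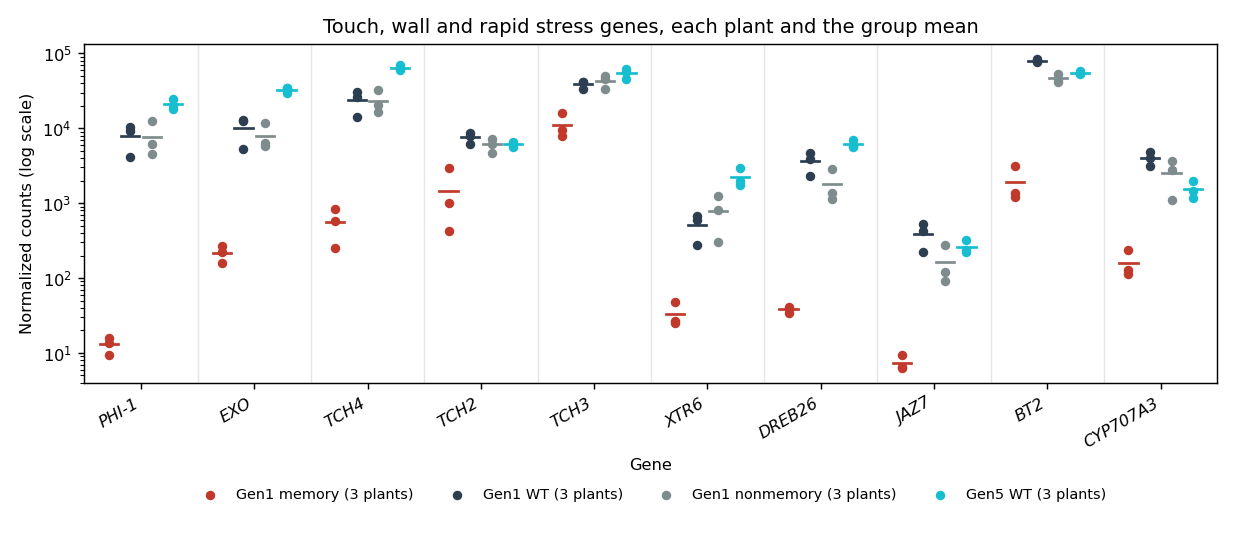
Normalized counts (log scale) of 10 touch, wall and rapidly induced stress genes in each of 12 plants, with short lines at the group means and colours as in the plot of clock and cold-response genes. All 10 genes are lowest in the 3 memory plants, PHI-1 at 9.37 to 16 normalized counts.

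Transcription factors and kinases that are induced early in stress fell as a group. Of 25 tested, 18 were called lower and 1 higher, with a median log2 fold change of -2.0. DREB26 (AT1G21910), an AP2-type factor, had 34.3, 39.1 and 41.6 normalized counts in memory and 2273, 3939 and 4658 in WT (log2 fold change -6.55 ± 0.32, adjusted p = 4e-05). A further AP2-type gene of the list, AT1G33760, had 2.08, 1.06 and 3.2 against 246, 523 and 624 (log2 fold change -7.69 ± 0.55, adjusted p = 0.00012), and AT1G77640, of the same family but outside the list, had 8.33, 7.39 and 4.26 against 258, 376 and 513 (log2 fold change -5.80 ± 0.38, adjusted p = 8.7e-05). The 1 rise was in ERF4, a repressor of this family, with 4156, 3964 and 6110 against 3454, 3236 and 3154 (log2 fold change 0.54 ± 0.16, adjusted p = 0.036), a call lost without Gen1 memory 3 (log2 fold change 0.33, adjusted p = 0.015), Gen1 WT 1 (log2 fold change 0.58, adjusted p = 0.079), Gen1 WT 2 (log2 fold change 0.54, adjusted p = 0.1) or Gen1 WT 3 (log2 fold change 0.51, adjusted p = 0.1). Other genes among the 10 largest falls lie outside this list. BT2 (AT3G48360), a scaffold protein that responds to sugar, nitrogen and time of day, had 1194, 1354 and 3131 against 76322, 80444 and 83160 (log2 fold change -5.39 ± 0.40, adjusted p = 0.00015), and the efflux carrier AT5G52050 had 117, 76 and 169 against 3678, 6109 and 5018 (log2 fold change -5.34 ± 0.32, adjusted p = 7e-05). In DREB26, AT1G33760, AT1G77640, BT2 and AT5G52050 the memory plants lay below all 9 other plants. Over the whole list the memory plants lay beyond all 9 in 9 of 25 genes, near the 33.2% of all genes tested, and in the rest at least 1 memory plant reached into the range of the others.

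Hormone pathways changed to different extents. Abscisic acid rises in drought and is made through NCED3 and broken down by CYP707A enzymes. Of 20 genes 4 were higher and 2 lower, or 30% called against 20.0% over all genes tested. The median log2 fold change of 0.10 turned to -0.09 with library totals. CYP707A3 (AT5G45340) had 128, 112 and 240 normalized counts in memory and 3159, 4819 and 4008 in WT (log2 fold change -4.63 ± 0.31, adjusted p = 9.9e-05). NCED3 had 1170, 1037 and 1504 against 363, 397 and 890 (log2 fold change 1.18 ± 0.34, adjusted p = 0.034), and its call was lost without Gen1 memory 1 (log2 fold change 1.23, adjusted p = 0.055), Gen1 memory 2 (log2 fold change 1.3, adjusted p = 0.059), Gen1 memory 3 (log2 fold change 1.02, adjusted p = 0.08), Gen1 WT 1 (log2 fold change 0.95, adjusted p = 0.096) or Gen1 WT 2 (log2 fold change 0.99, adjusted p = 0.11). The phosphatase gene HAI2 had 637, 838 and 976 against 213, 239 and 405 (log2 fold change 1.53 ± 0.27, adjusted p = 0.0048), and the bZIP factor ABF1 had 4996, 5781 and 5530 against 2108, 2178 and 2127 (log2 fold change 1.36 ± 0.07, adjusted p = 5.7e-05). The stress-induced NAC factor RD26 was lower, with 1475, 1571 and 1771 against 3895, 4365 and 4818 (log2 fold change -1.43 ± 0.10, adjusted p = 0.00013).

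Gibberellin promotes stem growth and flowering by removing DELLA repressors. Of 18 genes 7 were higher and 2 lower, a count of 9 that fell to 5 without Gen1 WT 1 and to 4 without Gen1 WT 2. The DELLA gene RGL2 had 449, 376 and 386 normalized counts in memory and 90.4, 93.9 and 89.1 in WT (log2 fold change 2.16 ± 0.14, adjusted p = 8.2e-05). GA3OX1, which makes the active hormone, had 167, 64.4 and 115 against 304, 371 and 408 (log2 fold change -1.63 ± 0.32, adjusted p = 0.0076). The other gene called lower was GA2OX2, a gibberellin 2-oxidase (log2 fold change -1.34 ± 0.30, adjusted p = 0.013), a call lost without Gen1 WT 2 (adjusted p = 0.052). GASA6, of a gibberellin-regulated family, rose (log2 fold change 1.17 ± 0.29, adjusted p = 0.019). The GASA6 call was lost without Gen1 memory 2, Gen1 WT 1 or Gen1 WT 2 (adjusted p = 0.051 to 0.071). In the brassinosteroid pathway 4 of 11 genes were lower and 1 higher. The hormone-inactivating SOB7 had 118, 150 and 134 against 277, 324 and 376 (log2 fold change -1.27 ± 0.17, adjusted p = 0.0017), the response factor BZR1 had 1599, 1771 and 1545 against 2500, 2545 and 2914 (log2 fold change -0.68 ± 0.09, adjusted p = 0.0015), and BR6OX2, of the last synthetic steps, had 2059, 1948 and 1916 against 1462, 1325 and 1039 (log2 fold change 0.64 ± 0.13, adjusted p = 0.0077).

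Auxin genes were mixed. Auxin is moved by PIN carriers and read through Aux/IAA repressors, and it switches on SAUR genes of cell expansion. PIN7 had 10662, 11231 and 10956 normalized counts in memory and 4659, 4689 and 5143 in WT (log2 fold change 1.19 ± 0.07, adjusted p = 7e-05), while PIN3 had 5288, 5378 and 5104 against 7252, 7271 and 9921 (log2 fold change -0.62 ± 0.13, adjusted p = 0.0094) and missed the fold threshold without Gen1 WT 3 (log2 fold change -0.46, adjusted p = 0.0078). The other 8 carrier genes tested were not called, so 20% of the carriers were called, the same as the 20.0% over all genes tested. Of 59 SAUR genes 13 were higher and 9 lower. SAUR15 had 322, 294 and 200 against 39.5, 23.9 and 40.3 (log2 fold change 2.98 ± 0.28, adjusted p = 0.00038), and AT1G72430 had 2324, 2473 and 1686 against 7526, 10077 and 11231 (log2 fold change -2.14 ± 0.19, adjusted p = 0.00032). Of 25 Aux/IAA genes none was higher and 4 were lower, or 16% called against 20.0% over all genes tested. The Aux/IAA count fell to 2 without Gen1 memory 2, Gen1 memory 3 or Gen1 WT 2. Among 8 type-A response regulators, brakes on cytokinin signalling, ARR6 alone was called, with 612, 525 and 694 against 77.2, 93.9 and 76.9 (log2 fold change 2.89 ± 0.16, adjusted p = 5.7e-05). Its Gen1 nonmemory plants had 1285, 729 and 2059 and its Gen5 WT plants 300, 354 and 436, so here the Gen1 WT plants were the low group. The count of 1, or 12.5% against 20.0% over all genes tested, rose to 3 without Gen1 memory 1 and to 2 without Gen1 memory 2.

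Defence pathways changed in part. Jasmonate acts in wounding and is restrained by JAZ repressors. Of 26 genes 3 were higher and 5 lower, or 30.8% called against 20.0% over all genes, and 5 were called at a log2 threshold of 1. JAZ7 (AT2G34600) had 9.37, 6.34 and 6.39 normalized counts in memory and 226, 419 and 531 in WT (log2 fold change -5.70 ± 0.42, adjusted p = 0.00014), and JAZ9 had 5007, 5887 and 5744 against 11432, 12467 and 12382 (log2 fold change -1.11 ± 0.09, adjusted p = 0.00017). LOX2, a lipoxygenase of jasmonate synthesis, was not called (206191, 214326 and 242830 against 221896, 255589 and 227858, log2 fold change -0.08 ± 0.11, adjusted p = 0.61). VSP2 was among the rises, with 1821, 3232 and 4458 against 1169, 1638 and 1568 (log2 fold change 1.13 ± 0.30, adjusted p = 0.025). The VSP2 call was lost without Gen1 memory 2 or any single WT plant (adjusted p = 0.061 to 0.087). In the salicylate list 3 of 19 genes were lower and none higher, or 15.8%. The count rose to 9 without Gen1 memory 1. NPR3, a salicylate receptor, had 2336, 2229 and 2015 against 7045, 6314 and 5608 (log2 fold change -1.52 ± 0.10, adjusted p = 0.00011), and WRKY70 had 22339, 18338 and 24760 against 43951, 42495 and 43769 (log2 fold change -0.98 ± 0.11, adjusted p = 0.00092). PR1, the usual marker of this defence, spread widely within both groups, with 73247, 15033 and 4615 in memory and 32062, 29202 and 3105 in WT (log2 fold change 0.54 ± 1.07, adjusted p = 0.73), so a difference could not be told from the spread between plants.

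Flowering genes stood apart from WT at the level of the florigen. FT carries the flowering signal from leaf to shoot tip, CO and GI promote it, and FLC, CDF and TEM factors hold it back. Of 27 genes 6 were higher and 7 lower, and the median log2 fold change of 0.06 turned to -0.12 with library totals. FT (AT1G65480) had 29.1, 42.2 and 21.3 normalized counts in memory and 375, 456 and 523 in WT (log2 fold change -3.85 ± 0.27, adjusted p = 0.00011), with 265, 319 and 283 in Gen1 nonmemory and 272, 192 and 250 in Gen5 WT. FLC (AT5G10140) had 531, 205 and 156 against 17.9, 56.5 and 69.4 (log2 fold change 2.64 ± 0.61, adjusted p = 0.015), a call that missed the p threshold without Gen1 WT 2 (log2 fold change 2.78, adjusted p = 0.05). CDF3 (AT3G47500) had 5875, 5701 and 6089 against 928, 674 and 718 (log2 fold change 2.94 ± 0.13, adjusted p = 2.7e-05), whereas TEM2 (AT1G68840) had 1070, 785 and 905 against 5833, 4668 and 6128 (log2 fold change -2.58 ± 0.15, adjusted p = 6.3e-05). CO, named here after its values were seen, was called lower (log2 fold change -0.90 ± 0.21, adjusted p = 0.017), while GI was higher, as given above. The memory plants lay below Gen1 WT in CO but not below all 9 other plants. SOC1, which acts after FT in the shoot tip, had 3875, 5287 and 4576 against 3411, 3473 and 3226 and missed the fold threshold (log2 fold change 0.45 ± 0.11, adjusted p = 0.02), which it passed without Gen1 memory 1 (log2 fold change 0.57, adjusted p = 0.004). FT and CDF3 thus moved apart from WT in opposite directions in every plant. In the same samples the summed level of 8 floral organ markers was 84.2 to 88.5 normalized counts in memory, 126 to 142 in WT and 74.3 to 121 in Gen1 nonmemory. Of the 4 that could be tested, 2 were called lower (AG and SEP1), 1 higher (SEP3) and SHP1 was not called. The part of these markers in the flowering results was not tested.

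Carbon metabolism changed on both sides of starch. Starch is laid down by day and broken down at night, and GWD1 starts the breakdown by phosphorylating the granule. Of 19 breakdown genes 7 were higher and 2 lower, and of 16 synthesis genes 7 were higher and 1 lower. At a threshold of 1 on the log2 scale 1 and 2 genes were called in these lists. GWD1 had 136072, 143437 and 162082 normalized counts in memory and 68648, 83278 and 72481 in WT (log2 fold change 0.99 ± 0.11, adjusted p = 0.00082), and LSF1, a starch-binding regulator, had 4444, 4293 and 5866 against 2362, 2603 and 2513 (log2 fold change 0.98 ± 0.12, adjusted p = 0.0013) with overlapping values of 3700, 4318 and 4252 in Gen1 nonmemory. GBSS1, the synthase of amylose, had 3909, 1911 and 1379 against 673, 837 and 589 (log2 fold change 1.79 ± 0.37, adjusted p = 0.0097), and the debranching enzyme ISA2 had 9623, 9666 and 11508 against 4241, 4938 and 4547 (log2 fold change 1.18 ± 0.10, adjusted p = 0.00023). BAM3, the main leaf beta-amylase, did not pass the test (log2 fold change 0.19 ± 0.12, adjusted p = 0.25). Among 19 genes that respond to sugar starvation 9 were lower and 1 higher. BT5, a relative of BT2, had 192, 192 and 389 against 5645, 5402 and 5044 (log2 fold change -4.37 ± 0.28, adjusted p = 8.3e-05). The classic starvation genes DIN1 (log2 fold change -0.20 ± 0.56, adjusted p = 0.82) and ASN1 (log2 fold change 1.59 ± 0.67, adjusted p = 0.11) were not called, although ASN1 was called without Gen1 WT 3 (log2 fold change 2.77, adjusted p = 0.0098).

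Some phosphate genes showed Gen1 WT plants apart from all other groups. SPX1, an inhibitor of the phosphate starvation response that is itself induced by it, had 899, 1262 and 843 normalized counts in memory and 6396, 4434 and 3575 in Gen1 WT (log2 fold change -2.25 ± 0.25, adjusted p = 0.00068). Gen1 nonmemory plants had 473, 629 and 400 and Gen5 WT plants 717, 620 and 666, so that all memory plants lay below the Gen1 WT plants and above the plants of both other controls. GDPD1, which releases phosphate from lipid remnants, had 502, 995 and 387 against 4184, 3922 and 4079 (log2 fold change -2.68 ± 0.32, adjusted p = 0.0011), with 977, 1265 and 1289 in Gen1 nonmemory. MGD3, which makes galactolipids in place of phospholipids, was the 1 rise, with 316, 272 and 237 against 146, 155 and 112 (log2 fold change 1.01 ± 0.19, adjusted p = 0.0063), and there the memory plants lay above all 9 others. In all, 3 of 10 genes were lower and 1 higher.

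Iron genes changed most in memory plants 2 and 3. Leaves short of iron switch on the bHLH38, bHLH39, bHLH100 and bHLH101 factors, while ferritins store iron in plastids when it is plentiful. Of 12 iron genes 3 were higher and 6 lower, and the count of 9 fell to 5 without Gen1 memory 2 or Gen1 WT 1 and to 4 without Gen1 WT 2. NEET (AT5G51720), an iron-sulfur protein, had 818, 3172 and 5389 normalized counts in memory and 49.9, 23.9 and 38.5 in WT (log2 fold change 6.39 ± 0.77, adjusted p = 0.001), with 388, 207 and 323 in Gen1 nonmemory and 253, 224 and 952 in Gen5 WT. Memory plant 1 was the lowest of its group and lay within the Gen5 WT range. The ferritin FER4 had 509, 2032 and 2082 against 358, 290 and 410 (log2 fold change 2.14 ± 0.49, adjusted p = 0.014), a call lost without Gen1 WT 1 (log2 fold change 2.15, adjusted p = 0.05) or Gen1 WT 2 (log2 fold change 2.02, adjusted p = 0.059). FER1 had 742, 4252 and 4382 against 823, 449 and 927 (log2 fold change 2.1 ± 0.62, adjusted p = 0.036), with memory plant 1 inside the WT range, and its call was lost without Gen1 memory 2 (log2 fold change 1.83, adjusted p = 0.1), Gen1 memory 3 (log2 fold change 1.79, adjusted p = 0.082), Gen1 WT 1 (log2 fold change 2.19, adjusted p = 0.093), Gen1 WT 2 (log2 fold change 1.85, adjusted p = 0.12) or Gen1 WT 3 (log2 fold change 2.31, adjusted p = 0.072).

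The deficiency factors showed the reverse order. bHLH101 had 852, 180 and 63.9 normalized counts in memory and 5664, 4917 and 4665 in WT (log2 fold change -3.78 ± 0.79, adjusted p = 0.01), and NAS4, which makes an iron chelator, had 2862, 1195 and 1139 against 6978, 6587 and 5631 (log2 fold change -1.87 ± 0.35, adjusted p = 0.0065). bHLH38 had 4035, 512 and 174 against 7667, 6908 and 5629 and was not called (log2 fold change -2.08 ± 0.96, adjusted p = 0.14). Without Gen1 memory 1, bHLH38 was called (log2 fold change -4.27, adjusted p = 0.0011), and so was bHLH39 (log2 fold change -4.55, adjusted p = 0.0018). bHLH100 had 4974, 576 and 129 against 28098, 24794 and 22397 (log2 fold change -3.71 ± 1.13, adjusted p = 0.041), a call lost without Gen1 memory 2 (log2 fold change -3.28, adjusted p = 0.11), Gen1 WT 1 (log2 fold change -3.63, adjusted p = 0.091), Gen1 WT 2 (log2 fold change -3.72, adjusted p = 0.089) or Gen1 WT 3 (log2 fold change -3.79, adjusted p = 0.075). PYE and BTS, a factor and a ubiquitin ligase of the same response, had 1715, 1058 and 891 against 3208, 2917 and 2666 (log2 fold change -1.25 ± 0.23, adjusted p = 0.0061) and 42696, 18342 and 13163 against 77738, 83562 and 74944 (log2 fold change -1.66 ± 0.40, adjusted p = 0.018). The BTS call was lost without Gen1 memory 2 (log2 fold change -1.48, adjusted p = 0.065) or Gen1 WT 2 (log2 fold change -1.61, adjusted p = 0.056). The memory plants were thus unlike each other in this pathway, with plant 1 nearest to Gen1 WT in all of these genes. In each of these deficiency genes every Gen1 WT plant lay above all plants of both other controls. For PYE, Gen5 WT plants had 1189, 1145 and 815, which overlaps the memory plants. The memory plants lay beyond all 9 other plants in 2 of the 12 iron genes, where 33.2% of all genes tested did so.

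**Figure D5:**
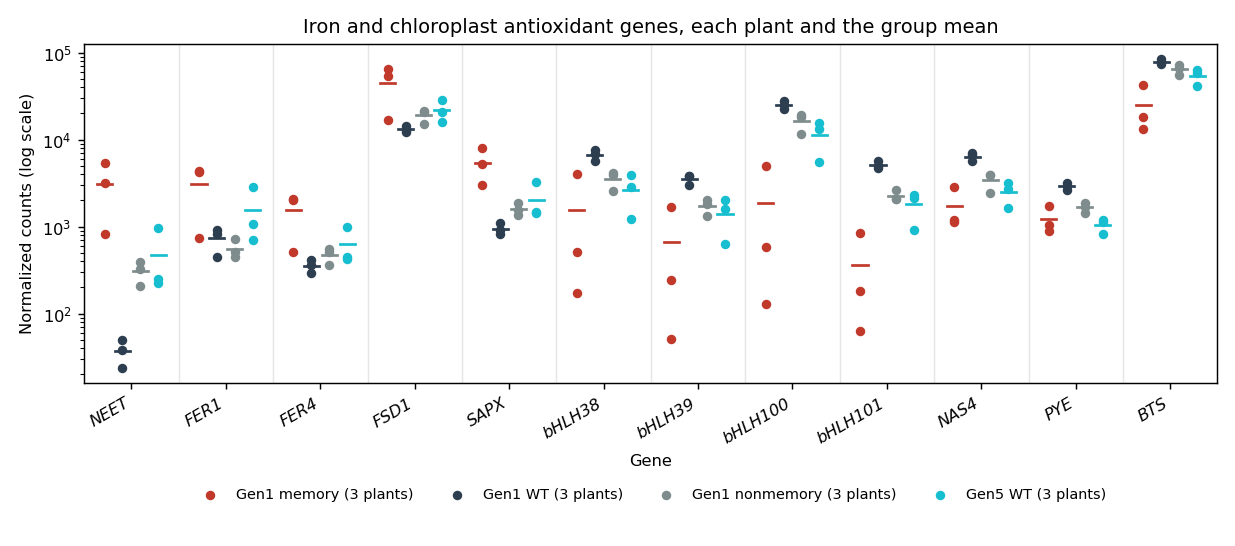
Normalized counts (log scale) of 12 iron and chloroplast antioxidant genes in each of 12 plants, with short lines at the group means and colours as in the plot of clock and cold-response genes. The memory plants spread over more than a 10-fold range in bHLH38, bHLH39, bHLH100 and bHLH101, and the memory plant nearest to the Gen1 WT points is plant 1.

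Among antioxidant enzymes and copper genes 7 of 16 were higher and 1 lower. SAPX, the stromal ascorbate peroxidase, had 2998, 5241 and 8009 normalized counts in memory and 1107, 920 and 818 in WT (log2 fold change 2.52 ± 0.33, adjusted p = 0.0015). FSD1, an iron superoxide dismutase, had 16813, 53941 and 64913 against 12946, 12140 and 14246 (log2 fold change 1.80 ± 0.43, adjusted p = 0.017), again lowest in memory plant 1, and its call was lost without Gen1 memory 2 (log2 fold change 1.67, adjusted p = 0.057), Gen1 WT 1 (log2 fold change 1.79, adjusted p = 0.061) or Gen1 WT 2 (log2 fold change 1.75, adjusted p = 0.067). Of the markers of mitochondrial signalling to the nucleus 2 of 10 were higher and 1 lower, or 30% called against 20.0% over all genes tested. AOX1A, the alternative oxidase used as the standard marker, had 4488, 4078 and 5085 against 2052, 2044 and 1916 (log2 fold change 1.19 ± 0.09, adjusted p = 0.00016), and NAC13, one of its regulators, had 1497, 1315 and 1635 against 836, 867 and 813 (log2 fold change 0.83 ± 0.10, adjusted p = 0.00084). NAC017, another regulator of AOX1A, was not called (log2 fold change -0.01 ± 0.07, adjusted p = 0.91). The marker called lower was OM66, with 4903, 1967 and 1652 against 10914, 11657 and 5482 (log2 fold change -1.71 ± 0.46, adjusted p = 0.027). Gen1 nonmemory plants had 1959, 4664 and 5111, which overlaps the memory plants. The OM66 call was lost without Gen1 memory 2, Gen1 memory 3, Gen1 WT 1 or Gen1 WT 2 (adjusted p = 0.057 to 0.089). Heat shock genes gave 2 higher and 2 lower of 15, or 26.7% called against 20.0% over all genes tested. Their count became 7 with DESeq2 and with library totals. The heat shock factor HSFA2 had 234, 202 and 140 against 530, 302 and 304 (log2 fold change -0.97 ± 0.28, adjusted p = 0.036), and its call was lost without Gen1 memory 2 (log2 fold change -1.0, adjusted p = 0.085), Gen1 memory 3 (log2 fold change -0.78, adjusted p = 0.081), Gen1 WT 1 (log2 fold change -0.65, adjusted p = 0.1) or Gen1 WT 2 (log2 fold change -1.10, adjusted p = 0.052). BAG6, a co-chaperone, had 1969, 1835 and 1853 against 690, 757 and 774 (log2 fold change 1.36 ± 0.08, adjusted p = 6.5e-05).

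Secondary metabolism fell in the flavonoid branch. Chalcone synthase (CHS) opens the route to flavonols and anthocyanins. Of 16 genes none was called higher and 8 were called lower, with a median log2 fold change of -1.28, and the count fell to 5 without Gen1 WT 2 or Gen1 WT 3. CHS (AT5G13930) had 689, 488 and 2506 normalized counts in memory and 8060, 11380 and 8061 in WT (log2 fold change -2.89 ± 0.59, adjusted p = 0.009), and 4CL3, which supplies it with substrate, had 130, 84.5 and 251 against 952, 1378 and 973 (log2 fold change -2.82 ± 0.37, adjusted p = 0.0016). PAP1 (AT1G56650), an activator of anthocyanin genes, was not called (log2 fold change -0.20 ± 0.18, adjusted p = 0.44). Of 23 aliphatic glucosinolate genes 6 were lower and none higher, or 26.1% called against 20.0% over all genes tested. The count rose to 11 without Gen1 memory 1 and fell to 3 without Gen1 memory 3 or Gen1 WT 2. The median log2 fold change was -0.29, but the medians against Gen1 nonmemory and Gen5 WT, not tested, were 0.64 and 0.67. The lead genes MYB28 (log2 fold change 0.42 ± 0.10, adjusted p = 0.017) and MYB29 (log2 fold change 0.51 ± 0.17, adjusted p = 0.061) were not called. Without Gen1 WT 1 they were called higher. GSTU20 had 15441, 12746 and 12594 against 23921, 22851 and 19622 (log2 fold change -0.69 ± 0.12, adjusted p = 0.0042), while Gen1 nonmemory plants had 11042, 15995 and 15697, so the Gen1 WT plants were the high group. Regulators of the indole branch went apart. MYB34 had 537, 597 and 535 against 139, 121 and 151 (log2 fold change 2.03 ± 0.13, adjusted p = 8.3e-05) and MYB51 had 2046, 2024 and 1411 against 5770, 4931 and 4350 (log2 fold change -1.44 ± 0.17, adjusted p = 0.00091). No gene of 8 in the cuticular wax list was called by edgeR. DESeq2 called none either, and the count became 1 without Gen1 memory 3 and 2 without Gen1 WT 1.

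DNA methylation genes moved little and mostly downward. CG methylation is copied by MET1 and CHG methylation by CMT3, and demethylation uses glycosylases such as DML3. Of 30 genes 7 were lower and 1 higher, or 26.7% called against 20.0% over all genes tested, with a median log2 fold change of -0.17. The count of 8 fell to 3 without Gen1 memory 2 and to 5 when any single WT plant was left out, and no member passed a threshold of 1 on the log2 scale. CMT3 (AT1G69770) had 1266, 1013 and 1238 normalized counts in memory and 2470, 2103 and 2249 in WT (log2 fold change -0.94 ± 0.11, adjusted p = 0.00079). MET1 (AT5G49160) had 3467, 2483 and 3592 against 4579, 4755 and 4683 (log2 fold change -0.54 ± 0.13, adjusted p = 0.019), a call lost without Gen1 memory 2 (log2 fold change -0.38, adjusted p = 0.01), Gen1 WT 1 (log2 fold change -0.56, adjusted p = 0.051), Gen1 WT 2 (log2 fold change -0.53, adjusted p = 0.065) or Gen1 WT 3 (log2 fold change -0.54, adjusted p = 0.051). DML3 had 515, 450 and 486 against 281, 354 and 281 (log2 fold change 0.67 ± 0.13, adjusted p = 0.0079). The de novo methyltransferase gene DRM2 (AT5G14620) was not called (log2 fold change -0.19 ± 0.08, adjusted p = 0.1).

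Chromatin and growth machinery gave small shifts. Of 42 core histone genes 11 were lower and 1 higher, or 28.6% called against 20.0% over all genes tested. Their median log2 fold change was -0.31, and 7 were called without Gen1 memory 2 and 19 with library totals. HTA13, an H2A gene, had 1267, 1052 and 1187 normalized counts in memory and 2597, 2373 and 2306 in WT (log2 fold change -1.04 ± 0.09, adjusted p = 0.00028). Of 21 genes of DNA replication and cell division 1 was called, lower, or 4.76%, which is under the 20.0% over all genes tested. This gene, TSO2, the small subunit of ribonucleotide reductase, had 7733, 4076 and 4832 against 18820, 20072 and 17174 (log2 fold change -1.74 ± 0.23, adjusted p = 0.0015). In this list 2 genes were called when any single memory plant was left out. The mitotic cyclin CYCB1;1 was not called (log2 fold change -0.13 ± 0.26, adjusted p = 0.75). Ribosomal proteins had 5 calls among 68 genes, 2 higher and 3 lower, or 7.35%, again under the share over all genes. Their median log2 fold change was -0.26, with 9 calls without Gen1 WT 3 or 23 with library totals. Although few passed the fold threshold, the memory plants lay beyond all 9 other plants in 41 of the 68 genes, below them in 39, where 33.2% of all genes tested did so in either direction. For SR splicing factors 1 of 19 was called, or 5.26%, also under that share. The gene was RS40, with 5619, 6324 and 5636 against 3604, 3821 and 4107 (log2 fold change 0.62 ± 0.08, adjusted p = 0.0015). Without Gen1 memory 2, 2 of these factors were called.

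Markers of seed, root and pollen were low. Seed storage markers summed to 0.00 to 4.26 normalized counts in memory and 0.00 to 5.63 in WT, with CRU3, SESA1, SESA3 and OLEO1 at 0 in all 6 plants. Root markers summed to 15.6 to 42.2 and 34.7 to 55.5, with COBL9, EXPA7 and RHD6 at 0. Pollen markers summed to 38.5 to 83.1 and 46.0 to 62.1, and 11 lignified stem markers to 4748 to 8113 and 5811 to 7603, both overlapping between the groups, with no stem marker called.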

How the data were processed

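Libraries were unstranded read pairs of 150 bases from single plants. The authors used STAR 2.7.0a for alignment and QoRTs for counting, dropped reads that mapped to more than 1 place, and deposited raw counts per gene for each plant, with no pooling. Unique mapping undercounts genes with near-identical copies, and reads from antisense genes cannot be told apart. Of each table, 32548 nuclear gene rows were used. Summary lines (0.879% to 1.08% of counts), other RNA features and the chloroplast and mitochondrial rows, which held 0 counts, were left out. The 6 plants were set by their labels, while the comparison and the gene lists were chosen with earlier results of these data known.

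The 6 plants were fitted in edgeR 4.0.16 (R 4.3.3) with TMM normalization, filterByExpr and the quasi-likelihood F test, with Benjamini-Hochberg adjustment over 19837 genes. The thresholds of 0.05 and 0.5 are those of the study's methods. SEs were obtained from the F statistic as the absolute log2 fold change over its root. Counts per plant were deep enough that spread between plants, and not counting error, set the precision. The naming rule took MSH1, the 10 largest rises and the 10 largest falls. The rises and falls were called genes with a mean of at least 100 normalized counts and no overlap. In each list the rule took preset lead genes with the 2 largest called rises and falls. Not all of these genes are given in the text. Short lists of up to 12 members could be named in full. AOP2 was not analysed here. Names, coordinates and upstream sequence come from RefSeq (TAIR10.1), read by gene identifier. The alternatives were RLE size factors, DESeq2 1.42.0, other filters and thresholds, all 15 plants in 1 fit, a replicate block, all rows, and each plant left out. Scaling by library totals was added after the TMM factors were seen to differ between the groups (0.932 to 0.956 in memory, 1.06 to 1.08 in WT). The code was tested on simulated data.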

Additional observations from a re-analysis of the deposited data

How the results depend on the processing

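The count of 3968 genes called (1888 higher, 2080 lower) stayed within 1.5 times with RLE size factors (3962), with DESeq2 (4246), without a filter on low counts (3971), with a minimum of 10 counts in every plant (3833), with all 15 plants in 1 fit (4288), with all rows (3968) and at an adjusted p under 0.01 (2777). Under that last setting the lower genes dropped to 1371. Requiring an absolute log2 fold change over 1 left 1657 genes, 710 higher and 947 lower. Leaving out each plant gave 3214 to 4092 calls. Library totals without TMM, chosen after seeing the data, gave 4793 calls, 1168 higher and 3625 lower, or 24.4% higher against 47.6% with TMM. No gene was called in 1 direction in the main fit and in the other direction under any of these settings.

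The deviations of plants with the same replicate number correlated at 0.324, -0.0659 and 0.331, and those with different numbers at -0.413 to 0.163. These few correlations cannot settle whether the numbers pair the plants. With the replicate number as a block 4122 genes were called (1907 higher, 2215 lower), and bHLH38 (adjusted p = 0.023) and bHLH39 (adjusted p = 0.022) were called by edgeR while FER1 (adjusted p = 0.062) was not. Salicylate calls became 9 and heat shock calls 7. Of the 149 called genes under the naming rule, 38 lost the call under some setting, with the stricter thresholds left out of this count. In 28 of 42 lists the count moved by over 1.5 times under some setting, here with the stricter thresholds included. Those thresholds can only lower a count, and the causes of the other moves were not tested. Groups of 3 cannot give an exact permutation p under 0.1, so single genes rest on the spread estimated across all genes.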
